A study of Mus musculus with 34 samples.

Results

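The mRNA of 10 Toll-like receptor genes (Tlr1, Tlr2, Tlr3, Tlr4, Tlr5, Tlr6, Tlr7, Tlr8, Tlr9 and Tlr13) was followed in the stromal vascular fraction (SVF) of visceral fat. The genes were chosen by name, and they are 10 of the 32098 genes listed. RNA-seq had been done on 34 SVF libraries from male C57BL/6J mice that carried no engineered allele in the labels. From 6 weeks of age the mice ate a high fat diet with 60% of its energy from fat (HFD) or a control diet (CHOW), and they were fasted for 6 hours before the tissue was taken. The CHOW groups held 4 libraries at 8 weeks on the diet, 5 at 20 weeks and 7 at 34 weeks, and the HFD groups held 6 libraries at each time. CHOW stands for either of a pair of control formulas, and the labels do not say which mouse ate which. All values are TPM, the length-corrected share of a library's transcripts that a gene takes, so levels of different receptors can be set side by side. In a mixed pellet such as the SVF, fewer cells of a type and less RNA per cell cannot be told apart.

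Toll-like receptors are membrane proteins that bind conserved parts of microbes and, in some cases, molecules released by damaged tissue. Tlr1, Tlr2, Tlr4, Tlr5 and Tlr6 sit mainly at the cell surface and bind lipids, lipoproteins and flagellin, whereas Tlr3, Tlr7, Tlr8, Tlr9 and Tlr13 sit in endosomes and bind nucleic acids. Most of them signal through the adaptor Myd88 to NF-kB and cytokine genes, and in fat they are known mainly from macrophages, other immune cells and, for Tlr4, also from adipocytes and progenitors.

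The 10 markers of leukocytes and the 8 of endothelial cells were at 1 TPM or more in all 34 libraries. Some libraries stood apart by RNA of other tissues. HFD 8 weeks replicate 3 held 117744 TPM of seminal vesicle genes, HFD 20 weeks replicate 5 held 11857 TPM of sperm cell genes (the other libraries held up to 5210 TPM), and CHOW 34 weeks replicates 5, 6 and 7 held 12423, 56225 and 17152 TPM of adipocyte genes, where the other CHOW libraries of 34 weeks held up to 1614 TPM. HFD 8 weeks replicate 6 held the most hemoglobin and other erythroid RNA, at 267887 TPM, where no other library exceeded 130027 TPM. It was kept when the other 5 were left out together, and its own removal is given beside the results it changed. Results of the 10 receptors are given with and without those 5 libraries wherever they changed a receptor's call. The calls of marker and pathway genes were not repeated without them.

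All 10 receptors were at 1 TPM or more in each of the 34 libraries, and Tlr2, which pairs with Tlr1 or Tlr6 to bind lipoproteins, was the most abundant in every group. The mean of Tlr2 was 336 ± 45.5 TPM (SD, n = 5) in CHOW and 267 ± 52.3 TPM (SD, n = 6) in HFD at 20 weeks, against 92.0 ± 60.8 TPM (SD, n = 7) and 102 ± 25.6 TPM (SD, n = 6) at 34 weeks. The 34 week libraries were tabulated apart, so no test was run between these times. In CHOW at 20 weeks Tlr7 came next at 33.6 ± 5.99 TPM (SD, n = 5), and Tlr9, Tlr8 and Tlr13 followed at 21 ± 2.13, 18.7 ± 15.2 and 15.6 ± 15.5 TPM (SD, n = 5). These neighbours lay within each other's spread, except that Tlr7 lay above Tlr9 in all 5 libraries. The order was another in HFD at 20 weeks, where Tlr13 at 54.5 ± 12.6 TPM and Tlr8 at 45.8 ± 14.8 TPM (SD, n = 6) came after Tlr2, and Tlr9 at 6.21 ± 1.02 TPM and Tlr5 at 1.87 ± 0.584 TPM (SD, n = 6) came last. Tlr11 and Tlr12, the remaining mouse receptors of the family, did not exceed 1.15 and 1.09 TPM in any library and were not tested.

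**Figure D1:**
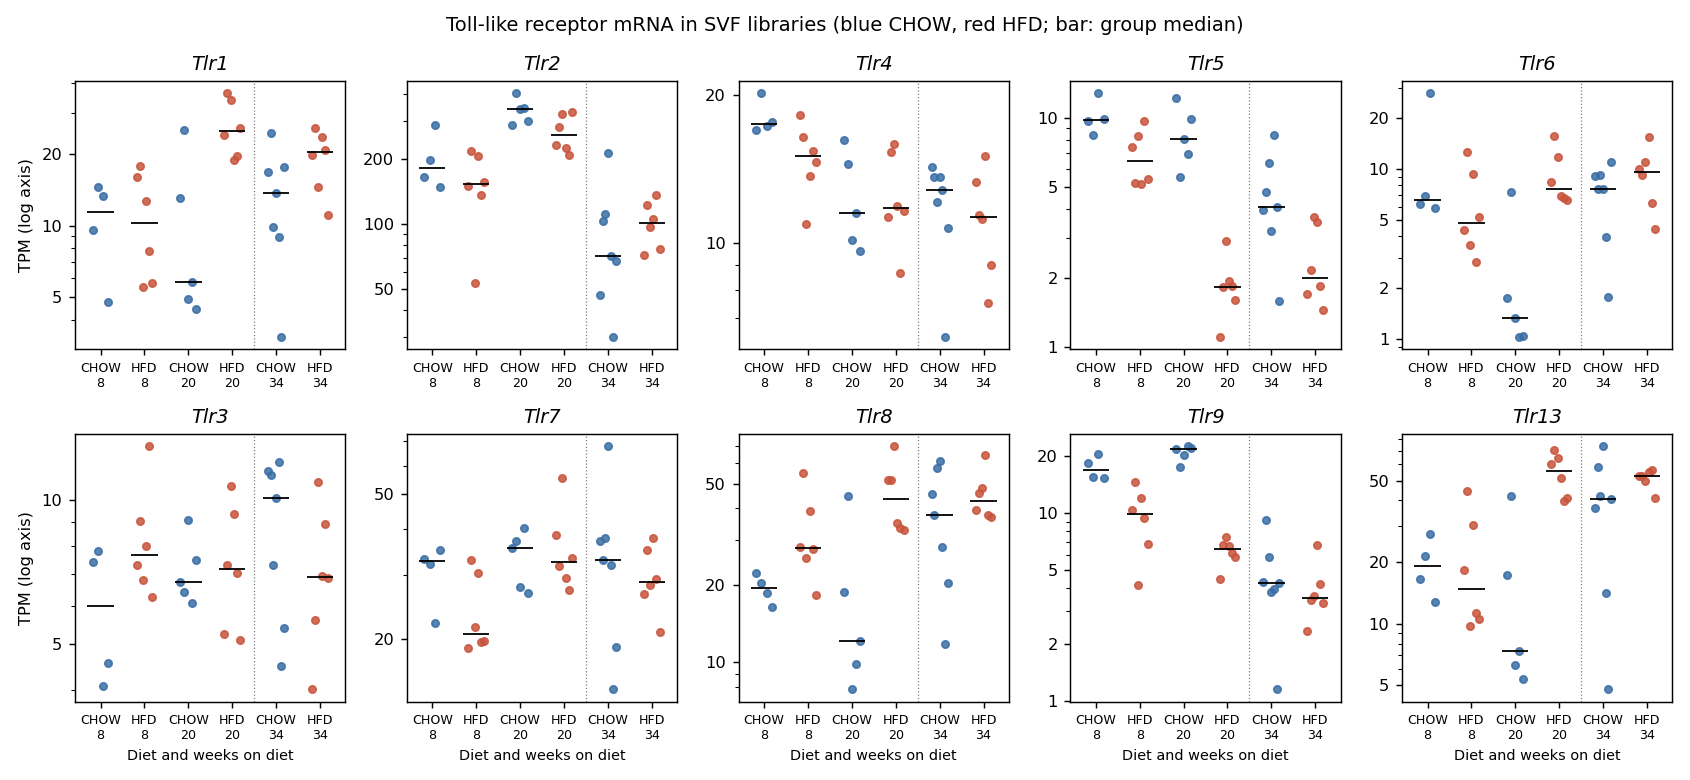
TPM of each receptor (log axis, a separate range for each panel) in the 6 groups of diet and weeks on the diet. Each point is 1 library, the bar is the group median, and the dotted line parts the 34 week libraries, which were tabulated apart. At 20 weeks the HFD libraries of Tlr5 and Tlr9 all sit below the CHOW libraries, and for Tlr1, Tlr6, Tlr8 and Tlr13 a single CHOW library sits among the HFD libraries.

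The receptors that passed the test between diets at 20 weeks were Tlr1, Tlr6, Tlr8, Tlr13, Tlr5 and Tlr9, so their promoters are shown. Each is the window from 250 bases before to 50 bases after a RefSeq transcript start (GRCm38.p6), read 5′ to 3′ on the strand of the gene. Capitals mark AGGAAG or its reverse complement CTTCCT, the core bound by the myeloid factor PU.1, which was searched on both strands.
Tlr1, chr5:64933509-64933808, minus strand: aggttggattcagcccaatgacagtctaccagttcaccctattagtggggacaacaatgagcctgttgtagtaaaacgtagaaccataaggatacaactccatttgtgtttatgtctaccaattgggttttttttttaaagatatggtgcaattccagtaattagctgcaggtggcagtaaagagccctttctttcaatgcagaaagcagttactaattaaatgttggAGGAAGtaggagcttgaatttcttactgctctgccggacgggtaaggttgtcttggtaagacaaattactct
Tlr6, chr5:64959999-64960298, minus strand: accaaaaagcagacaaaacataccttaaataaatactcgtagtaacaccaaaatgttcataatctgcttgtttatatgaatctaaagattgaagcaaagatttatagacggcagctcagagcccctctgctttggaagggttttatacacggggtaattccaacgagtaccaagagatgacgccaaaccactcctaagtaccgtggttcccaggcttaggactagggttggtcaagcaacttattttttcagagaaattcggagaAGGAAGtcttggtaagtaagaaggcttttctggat
Tlr8, chrX:167264280-167264579, minus strand: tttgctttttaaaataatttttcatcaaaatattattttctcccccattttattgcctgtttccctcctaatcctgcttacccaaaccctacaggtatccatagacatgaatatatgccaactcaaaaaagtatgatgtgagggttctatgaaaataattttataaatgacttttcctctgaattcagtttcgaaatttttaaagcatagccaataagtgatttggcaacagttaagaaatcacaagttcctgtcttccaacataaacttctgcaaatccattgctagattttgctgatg
Tlr13, chrX:106143025-106143324, plus strand: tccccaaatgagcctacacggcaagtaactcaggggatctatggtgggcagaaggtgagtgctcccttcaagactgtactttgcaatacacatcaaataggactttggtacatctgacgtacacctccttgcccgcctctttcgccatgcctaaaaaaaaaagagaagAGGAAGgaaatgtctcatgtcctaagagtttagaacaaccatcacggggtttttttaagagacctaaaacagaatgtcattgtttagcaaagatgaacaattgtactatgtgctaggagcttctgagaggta
Tlr5, chr1:182954538-182954837, plus strand: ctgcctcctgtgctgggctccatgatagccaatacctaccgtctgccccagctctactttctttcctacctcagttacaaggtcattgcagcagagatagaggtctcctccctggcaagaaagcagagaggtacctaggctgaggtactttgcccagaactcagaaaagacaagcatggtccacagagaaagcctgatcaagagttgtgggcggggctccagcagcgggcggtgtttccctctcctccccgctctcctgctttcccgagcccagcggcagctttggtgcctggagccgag
Tlr9, chr9:106222348-106222647, plus strand: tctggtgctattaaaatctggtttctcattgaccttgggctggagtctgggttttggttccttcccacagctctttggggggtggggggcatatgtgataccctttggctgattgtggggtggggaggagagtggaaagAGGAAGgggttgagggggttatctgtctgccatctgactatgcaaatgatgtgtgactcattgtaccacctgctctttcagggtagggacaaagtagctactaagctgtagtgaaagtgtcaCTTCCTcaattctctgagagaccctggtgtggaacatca
The PU.1 core was found in 35.4% of the 32851 promoter windows of this length, so a match is common. It stood 22 bases before the start in Tlr1, 82 bases before it in Tlr13 and 15 bases after it in Tlr6, while Tlr9 held a match 111 bases before and another 11 bases after its start. None was found in the windows of Tlr8 and Tlr5, which shows only that these letters are not in those windows. Tlr1 and Tlr6 each had 2 windows, and the one nearest to the start in gencode M21 is shown. Of the other receptors, Tlr2 held 2 matches and Tlr3 none, and Tlr4 and Tlr7 had no entry. Besides the PU.1 core, 4 other motifs were searched on both strands. The AP-1 letters TGANTCA, in 7.8% of all windows, occurred in the Tlr9 window. The TATA box letters TATAAA, in 13.6%, occurred 3 times in the Tlr6 window, each time as the reverse complement TTTATA. In the Tlr8 window they occurred 2 times, and both matches share the same stretch TTTATAAA, read on either strand. The NF-kB motif (1.6% of windows) and the interferon-stimulated response element (3.4%) occurred in none of the 6 shown, while the Tlr3 window held 1 NF-kB match and the other Tlr6 window 2 matches of the response element.

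Tlr1 (chr5:64924679-64933563) and Tlr6 (chr5:64952031-64960097) lie on the minus strand of chromosome 5 (GRCm38) with 18467 bases between them. They are close paralogs, so the division of reads between them by Salmon is uncertain. Tlr8 (chr X, 167242696 to 167264329) and Tlr7 (chr X, 167304929 to 167330558) lie 40599 bases apart, Tlr13 starts at 106143204 on the same chromosome, Tlr5 (chr1:182954788-182976044) lies on chromosome 1 and Tlr9 (chr9:106222598-106226883) on chromosome 9.

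At 20 weeks the HFD changed 6 of the 10 receptors, 4 upward and 2 downward (limma, adjusted p under 0.05). Over all 16808 genes tested, 14.3% were called, 9.32% as higher and 4.99% as lower. The median log2 fold change of the 10 receptors was 0.05, and that of all genes tested was 0.08.

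Among the surface receptors, the pair of Tlr2 partners rose. Tlr1, which joins Tlr2 to bind triacylated lipoproteins, was at 13.1, 25.4, 4.89, 5.75 and 4.46 TPM in CHOW and at a lowest 18.9, a median 25.0 and a highest 36.2 TPM in HFD. CHOW replicate 2 lay within the range of the HFD libraries, and the other 4 CHOW libraries lay below it. On the log2 scale the change of Tlr1 was 1.48 (SE 0.39, adjusted p = 0.0158). Without CHOW replicate 3, 4 or 5 the call was lost, with an adjusted p of up to 0.0574.

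Tlr6, which joins Tlr2 to bind diacylated lipoproteins, was at 1.74, 7.30, 1.32, 1.03 and 1.04 TPM in CHOW and at a lowest 6.56, a median 7.64 and a highest 15.6 TPM in HFD. Again CHOW replicate 2 was the only CHOW library inside the HFD range. For Tlr6 the log2 fold change was 1.75 (SE 0.42, adjusted p = 0.00900).

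Their shared partner Tlr2 did not pass the test, at -0.34 on the log2 scale (SE 0.26, adjusted p = 0.409). It was at 289, 404, 341, 346 and 300 TPM in CHOW, and at a lowest 210, a median 258 and a highest 332 TPM in HFD. The groups overlapped, and the sign was negative although both partners rose.

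Tlr5, the receptor of bacterial flagellin, fell. It was at 12.2, 5.52, 8.06, 6.94 and 9.90 TPM in CHOW and at a lowest 1.11, a median 1.83 and a highest 2.90 TPM in HFD. The groups did not overlap. The log2 fold change of Tlr5 was -1.71 (SE 0.20, adjusted p = 2.28e-05), the rank 22 by p among all genes tested.

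Tlr4, the receptor of lipopolysaccharide, gave 0.01 on the log2 scale (SE 0.16, adjusted p = 0.988). The mean was 12.4 ± 2.86 TPM (SD, n = 5) in CHOW and 12.4 ± 2.70 TPM (SD, n = 6) in HFD.

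Among the endosomal receptors, Tlr13, which binds bacterial ribosomal RNA in mice, had the highest log2 fold change of the 10. It was at 17.3, 41.9, 6.25, 7.36 and 5.35 TPM in CHOW and at a lowest 39.6, a median 55.6 and a highest 70.4 TPM in HFD. CHOW replicate 2 overlapped the HFD range and the other CHOW libraries lay well below it. On the log2 scale the change of Tlr13 was 2.12 (SE 0.43, adjusted p = 0.00305).

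Tlr8, like Tlr7 a receptor of RNA and its neighbour on the X chromosome, was at 18.9, 44.8, 7.85, 9.90 and 12.1 TPM in CHOW and at a lowest 32.8, a median 43.4 and a highest 70.2 TPM in HFD. Only CHOW replicate 2 reached the HFD range. Tlr8 rose by 1.47 on the log2 scale (SE 0.33, adjusted p = 0.00649), whereas Tlr7 gave 0.07 (SE 0.19, adjusted p = 0.828).

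Tlr9, the receptor of unmethylated CpG DNA, fell. It was at 21.9, 17.6, 20.3, 22.8 and 22.3 TPM in CHOW and at a lowest 4.47, a median 6.39 and a highest 7.46 TPM in HFD. The groups were far apart, and CHOW replicate 2 lay with its own group here. For Tlr9 the log2 fold change was -1.62 (SE 0.21, adjusted p = 6.20e-05), the rank 38 by p. Tlr3, the receptor of double-stranded RNA, gave 0.02 (SE 0.21, adjusted p = 0.964). Of the 10 receptors, 2 (Tlr5 and Tlr9) had libraries that did not overlap between the diets at 20 weeks, as had 9.19% of all genes tested.

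**Figure D2:**
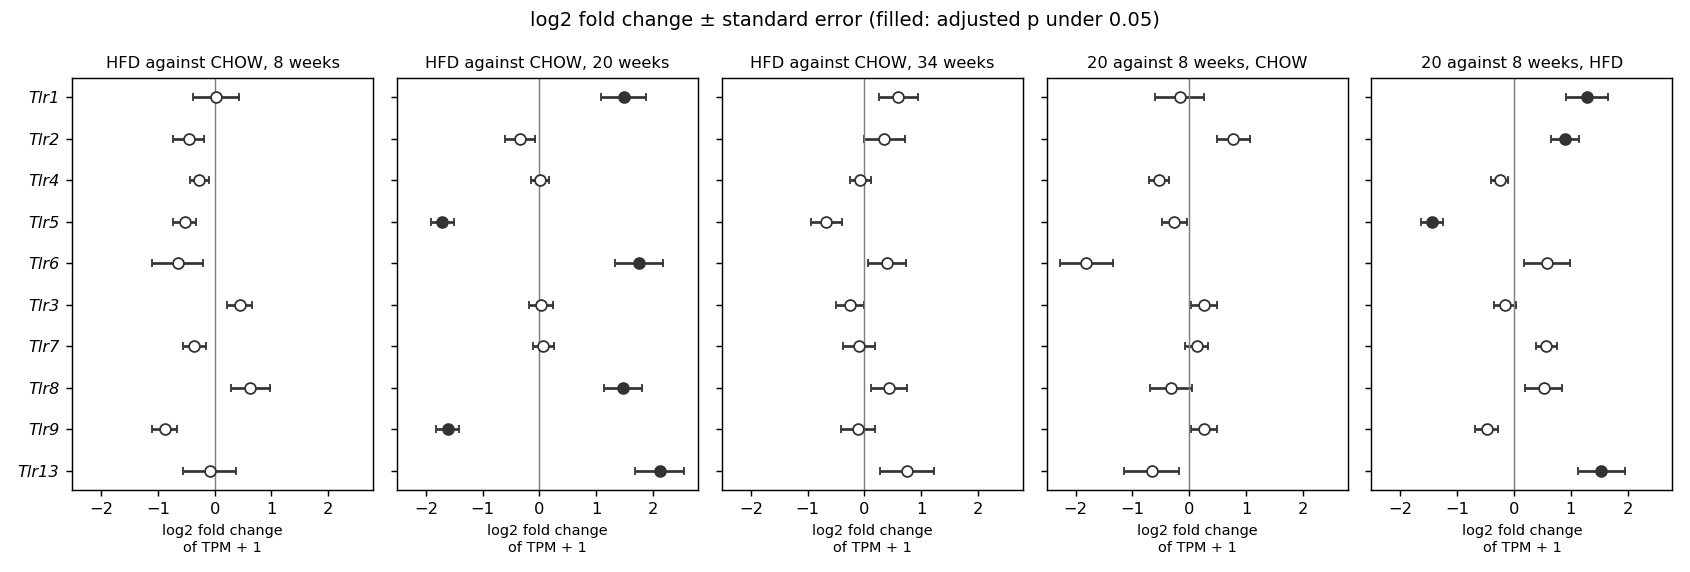
log2 fold change of TPM + 1 of each receptor (points) with its standard error (bars) in 5 comparisons, with filled points at an adjusted p under 0.05. At 20 weeks the values run from -1.71 for Tlr5 to 2.12 for Tlr13, and at 34 weeks no point is filled.

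Marker genes of several cell types moved with these results. Of the 11 macrophage markers, 4 rose at 20 weeks (Cd68, Adgre1, C1qb and C1qc) and 1 fell (Cd163). None of the 11 was below 1 TPM in any library, and their summed level was 3330 to 6840 TPM in CHOW and 5440 to 8910 TPM in HFD, with the highest CHOW sum in replicate 2. The leukocyte markers had 2 of 10 called as higher, where 14.3% of all genes were called, and the same CHOW library had the highest leukocyte sum of its group at 2857 TPM, against 1348 to 2322 TPM in the other 4. With the mean log2 level of the macrophage markers, or of the leukocyte markers, as a covariate, the same 6 receptors passed the test.

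Of the 9 adipocyte markers, 6 fell and 1 rose, where 4.99% of all genes were called as lower and 9.32% as higher. Their sums did not overlap, at 540 to 1100 TPM in CHOW and 290 to 456 TPM in HFD. With the adipocyte score as a covariate only Tlr5 and Tlr9 passed. On the log2 scale Tlr1 then gave 0.43 (adjusted p = 0.695), Tlr6 0.11 (adjusted p = 0.919), Tlr8 0.75 (adjusted p = 0.405) and Tlr13 0.82 (adjusted p = 0.429). Diet and that score cannot be told apart here. Of the 5 markers of plasmacytoid dendritic cells, a cell type known for Tlr9 and Tlr7, Siglech fell at 20 weeks (log2 fold change -1.83, SE 0.30, adjusted p = 0.000532). A single call among 5 genes lies near the 14.3% of all genes called. The summed level of the 5 was 11.2 to 30.5 TPM in CHOW and 5.41 to 11.7 TPM in HFD, and Ccr9, Cox6a2, Klk1 and Pacsin1 were listed at 0 in some libraries. The 9 markers of B cells, which also use Tlr9, had none called (6 comparisons gave 1 call, Cd79a at 34 weeks), with sums of 50.8 to 118 TPM in CHOW and 28.4 to 125 TPM in HFD. The part of these cell types in the receptor results was not tested beyond the covariates named.

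Of the 5 monocyte markers, 2 (Ly6c2 and Ccr2) fell at 20 weeks, with sums of 408 to 697 TPM in CHOW and 269 to 379 TPM in HFD. The conventional dendritic cell list of 6 had 1 called, Cd209a, which fell by 2.95 on the log2 scale (SE 0.24, adjusted p = 3.42e-07), and its sums were 103 to 137 TPM in CHOW and 42.0 to 55.2 TPM in HFD. Of the 8 neutrophil markers 6 were tested and 1 (Retnlg) fell, with sums of 162 to 345 TPM in CHOW and 18.9 to 107 TPM in HFD. The part of these lists in the fall of Tlr5 and Tlr9 was not tested. All 7 mast cell markers rose (sums of 478 to 685 TPM in CHOW and 575 to 2740 TPM in HFD), all 6 mesothelial markers fell (201 to 656 and 61.6 to 197 TPM) and all 5 erythroid genes fell (27300 to 130000 and 12600 to 30400 TPM). The T and NK cell list of 9 had 1 called as lower (Cd4), and the endothelial list of 8 had none. The fibroblast and progenitor list of 7 had 1 higher (Lum) and 1 lower (Pi16). The germ cell list of 7 had 1 higher (Gapdhs), and the seminal vesicle list had 1 of 6 genes tested and none called. Over all genes tested 14.3% were called. Lists of these sizes with 1 gene called lie near that share, so such counts say nothing particular about them.

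At 8 weeks the HFD changed none of the 10 receptors at an adjusted p under 0.05 (limma), while 2 had an unadjusted p under 0.05. Over all genes tested, 0.0238% were called at 8 weeks and 1630 genes had an unadjusted p under 0.05. Tlr9 was at 18.5, 15.5, 20.5 and 15.3 TPM in CHOW and at a lowest 4.13, a median 9.91 and a highest 14.6 TPM in HFD. All CHOW libraries of Tlr9 lay above all HFD libraries, and it was the only receptor without overlap, as were 2.11% of all genes. It gave -0.88 on the log2 scale (SE 0.22, unadjusted p = 0.000702, adjusted p = 0.159).

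Tlr5 at 8 weeks was at 9.67, 8.42, 12.8 and 9.86 TPM in CHOW and at a lowest 5.13, a median 6.45 and a highest 9.69 TPM in HFD, which overlapped. It gave -0.53 on the log2 scale (SE 0.21, unadjusted p = 0.0218, adjusted p = 0.420). The receptors that rose at 20 weeks had values at 8 weeks of 0.02 for Tlr1, -0.65 for Tlr6, 0.63 for Tlr8 and -0.09 for Tlr13 on the log2 scale. With the macrophage score as a covariate Tlr8 alone was called (adjusted p = 0.0479).

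At 34 weeks none of the 10 receptors was called (limma), and 1 had an unadjusted p under 0.05. Over the 13982 genes tested at this time, 0.243% were called and 1848 had an unadjusted p under 0.05. Tlr5 was at a lowest 1.59, a median 4.09 and a highest 8.44 TPM in CHOW and at a lowest 1.45, a median 2.01 and a highest 3.69 TPM in HFD. The groups overlapped, and the log2 fold change of Tlr5 was -0.67 (SE 0.27, unadjusted p = 0.0266, adjusted p = 0.316). None of the 10 receptors was free of overlap, as were 0.937% of all genes.

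The CHOW libraries of 34 weeks spread widely. Tlr13 was at a lowest 4.78, a median 40.7 and a highest 73.9 TPM in CHOW and at a lowest 40.9, a median 52.6 and a highest 56.3 TPM in HFD. Its lowest value, like that of every other receptor except Tlr5, was in replicate 6, the library with 56225 TPM of adipocyte genes. The log2 fold change of Tlr13 was 0.75 (SE 0.47, adjusted p = 0.495), and without the 3 libraries rich in adipocyte genes none of the receptors was called either. Tlr9 was at a lowest 1.15, a median 4.24 and a highest 9.23 TPM in CHOW and at a lowest 2.35, a median 3.52 and a highest 6.73 TPM in HFD, at -0.11 on the log2 scale (SE 0.30, adjusted p = 0.879).

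Between 8 and 20 weeks on HFD, 4 receptors changed, 3 upward (Tlr1, Tlr2 and Tlr13) and 1 downward (Tlr5). The mice of 20 weeks were also older, and the tissue was taken at the end of each time. Weeks on the diet, age and the session of tissue work therefore cannot be told apart in comparisons between times. Over all genes tested, 8.78% were called, 6.12% as higher and 2.65% as lower. That split depended on the scaling, the sample weights, the covariates and the libraries. In the main fit 69.8% of the calls were higher. The share was 40.8% with quantile normalization, 41.7% with TPM rescaled without erythroid, germ cell and seminal vesicle genes, and 42.9% with array weights. Under each of these 3, Tlr1, Tlr2, Tlr5 and Tlr13 passed in the same directions. It was 49.8% without HFD 8 weeks replicate 3, the library rich in seminal vesicle RNA. Without the libraries that stood apart, or with the macrophage score as a covariate, it was 52.8%. The median log2 fold change of the 10 receptors was 0.54, and that of all genes was 0.09.

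Tlr2 on HFD was at a lowest 53.2, a median 153 and a highest 218 TPM at 8 weeks and at a lowest 210, a median 258 and a highest 332 TPM at 20 weeks. A single library of 8 weeks reached into the range of 20 weeks, and the log2 fold change of Tlr2 was 0.90 (SE 0.25, adjusted p = 0.0303). Without HFD 20 weeks replicate 2 or 3, or HFD 8 weeks replicate 5, the call was lost, with an adjusted p of up to 0.0651. Tlr13 on HFD was at a lowest 9.75, a median 14.8 and a highest 44.4 TPM at 8 weeks, and the change was 1.54 on the log2 scale (SE 0.41, adjusted p = 0.0234). Without HFD 8 weeks replicate 3, 5 or 6 that call was lost (adjusted p of up to 0.0605).

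Tlr1 on HFD was at a lowest 5.51, a median 10.2 and a highest 17.9 TPM at 8 weeks, below all libraries of 20 weeks. It gave 1.29 on the log2 scale (SE 0.37, adjusted p = 0.0334), and the call was lost without HFD 20 weeks replicate 2 or 3 or without HFD 8 weeks replicate 3, 5 or 6 (adjusted p of up to 0.0815). Tlr5 on HFD fell by 1.44 on the log2 scale (SE 0.19, adjusted p = 5.81e-05) from a lowest 5.13 TPM at 8 weeks to a highest 2.90 TPM at 20 weeks. Its call held without each library in turn. Tlr1 and Tlr5 were the 2 receptors without overlap, as were 4.17% of all genes. Tlr7 gave 0.57 (SE 0.18, adjusted p = 0.0535).

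These calls moved with the libraries and the covariates. Leaving out 1 library at a time left 1 to 5 receptors called. Without HFD 8 weeks replicate 3 and HFD 20 weeks replicate 5 there were 3 (Tlr2, Tlr5 and Tlr9), with the macrophage score as a covariate 4 (Tlr4, Tlr5, Tlr9 and Tlr13), and with the adipocyte score 0. The sums of the adipocyte markers on HFD were 455 to 930 TPM at 8 weeks and 290 to 456 TPM at 20 weeks, and those of the macrophage markers were 2800 to 6090 and 5440 to 8910 TPM. All 7 mast cell markers rose over this time (median log2 fold change 3.23), with sums of 114 to 259 TPM at 8 weeks and 575 to 2740 TPM at 20 weeks. All 5 erythroid genes fell (median -2.08), with sums of 33200 to 268000 and 12600 to 30400 TPM. The part of mast cell and erythroid RNA in the receptor changes was not tested by a covariate.

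On CHOW no receptor was called between 8 and 20 weeks (limma), and 3 had an unadjusted p under 0.05. Over all genes tested, 0.613% were called and 2104 had an unadjusted p under 0.05. Tlr2 was at 165, 198, 287 and 149 TPM at 8 weeks, below every CHOW library of 20 weeks, at 0.78 on the log2 scale (SE 0.29, adjusted p = 0.248). Tlr4 was at 17, 20.2, 17.3 and 17.6 TPM at 8 weeks and at 16.2, 14.5, 10.1, 11.5 and 9.61 TPM at 20 weeks, also without overlap, at -0.53 on the log2 scale (SE 0.18, adjusted p = 0.194). These 2 receptors were the only ones without overlap, as were 6.28% of all genes.

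Tlr6 on CHOW was at 6.21, 6.92, 27.8 and 5.88 TPM at 8 weeks, against 1.03 to 1.74 TPM in 4 libraries of 20 weeks and 7.30 TPM in replicate 2. Its log2 fold change of -1.81 (SE 0.46, adjusted p = 0.0749) missed the threshold. Without CHOW 20 weeks replicate 2 it passed, and without HFD 8 weeks replicate 3 both Tlr2 and Tlr6 passed. Without both libraries of 8 and 20 weeks that stood apart, Tlr2 alone passed. The HFD value of Tlr6 over the same time was 0.58 (SE 0.40, adjusted p = 0.365).

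Whether the HFD effect differed between 8 and 20 weeks was tested by the diet by time interaction. None of the 10 receptors was called (limma), 5 had an unadjusted p under 0.05, and over all genes 0.297% were called and 2318 had an unadjusted p under 0.05. The interaction was 2.40 (SE 0.61, adjusted p = 0.109) for Tlr6 and 2.21 (SE 0.63, adjusted p = 0.156) for Tlr13, and -1.18 (SE 0.29, adjusted p = 0.0975) for Tlr5, all on the log2 scale. Tlr1 gave 1.46 (SE 0.57, adjusted p = 0.303) and Tlr9 -0.73 (SE 0.30, adjusted p = 0.327). Without CHOW 20 weeks replicate 2 there were 3 receptors called (Tlr5, Tlr6 and Tlr13), and without HFD 8 weeks replicate 2 there was 1 (Tlr6). A call at 20 weeks and none at 8 weeks is therefore not shown to be a difference between the times. The comparisons within 8 and 20 weeks share libraries and are not independent of each other.

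The make-up of the family differed between the groups while its sum did not follow the diet at 20 weeks. The summed TPM of the 10 receptors was 466 ± 80.2 (SD, n = 5) in CHOW and 467 ± 86.2 (SD, n = 6) in HFD. Tlr2 made up 72.5 ± 5.33% of that sum in CHOW and 57.3 ± 5.09% in HFD, and the 5 endosomal receptors made up 20.3 ± 3.43% and 32.1 ± 4.43% (SD, n = 5 and 6). At 8 weeks Tlr2 made up 57.5 ± 4.35% in CHOW and 52.2 ± 9.04% in HFD (SD, n = 4 and 6). The endosomal receptors made up 28.0 ± 5.21% and 33.5 ± 7.0% there. The HFD means of 20 weeks were thus near those of 8 weeks, while CHOW at 20 weeks had the highest Tlr2 mean and the lowest endosomal mean. These shares were described and not tested. At 20 weeks the diets overlapped at the edge, with the lowest CHOW share of Tlr2 at 66.8% and the highest HFD share at 66.9%.

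The ratio of Tlr13 to Tlr9 was chosen after their opposite changes at 20 weeks were seen, so it describes the libraries and adds no evidence to those changes. At 20 weeks it was 0.240, 0.309, 0.322, 0.789 and 2.38 in the CHOW libraries in rising order, and 6.45 to 13.4 in the HFD libraries. At 8 weeks it was 0.830 to 1.38 in CHOW and 1.20 to 3.04 in HFD, and at 34 weeks 3.57 to 19.6 in CHOW and 8.20 to 22.3 in HFD, with overlap both times. The ratio of Tlr8 to Tlr7 had a mean of 0.542 ± 0.387 in CHOW and 1.27 ± 0.210 in HFD at 20 weeks (SD, n = 5 and 6). The libraries overlapped, at 0.245 to 1.20 in CHOW and 0.987 to 1.63 in HFD. At 8 weeks this ratio was 0.468 to 0.847 in CHOW and 0.932 to 1.68 in HFD, without overlap. At 34 weeks it was 0.812 to 1.52 and 1.29 to 1.77, with overlap. It pairs a receptor called at 20 weeks with an uncalled one, and it was described and not tested. At 34 weeks the endosomal receptors held 48.8 ± 5.26% of the sum in CHOW and 49.1 ± 3.46% in HFD (SD, n = 7 and 6), and Tlr2 held 34.9 ± 7.39% and 36 ± 5.23%.

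**Figure D3:**
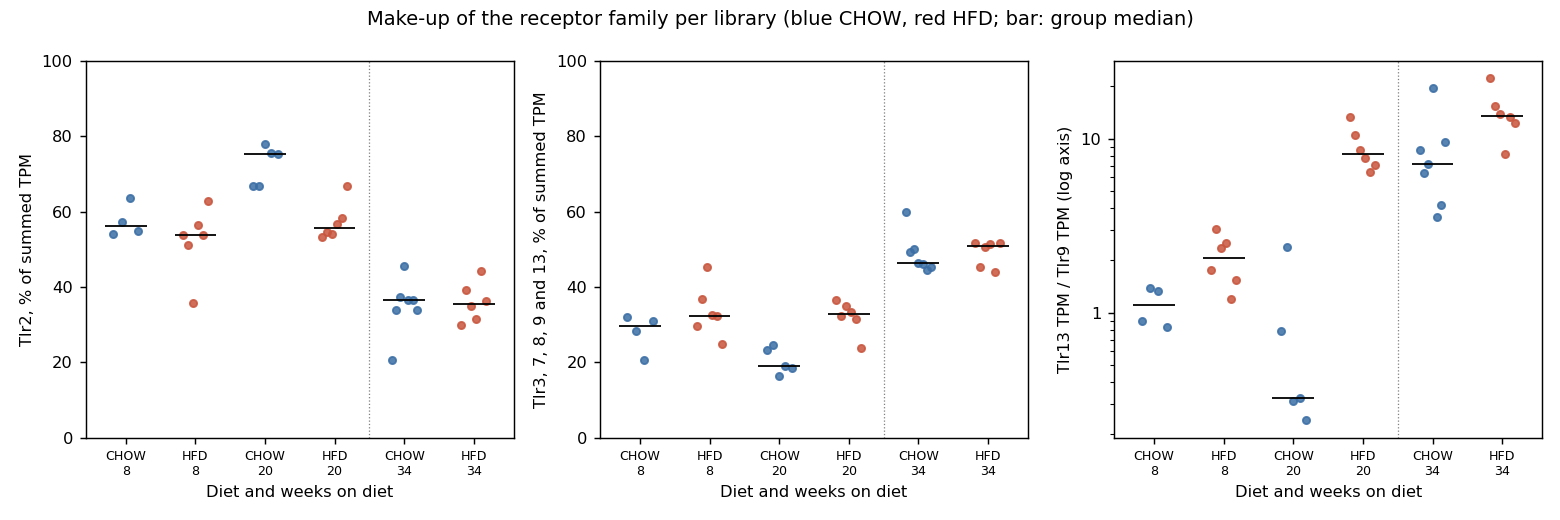
Share of Tlr2 (left) and of the 5 endosomal receptors (middle) in the summed TPM of the 10 receptors, in percent, and the ratio of Tlr13 to Tlr9 TPM (right, log axis), for each library in the 6 groups, with the group median as a bar. The ratio was chosen after the changes of both genes were seen; at 20 weeks it is at most 2.38 in CHOW and at least 6.45 in HFD.

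Across the 21 libraries of 8 and 20 weeks, Tlr1, Tlr13, Tlr8 and Tlr6 varied together. Pearson's r of log2(TPM + 1) was 0.95 for Tlr1 and Tlr13, 0.89 for Tlr8 and Tlr13 and 0.78 for Tlr6 and Tlr13, and with the group means removed these were 0.92, 0.89 and 0.84. Between Tlr5 and Tlr13 r was -0.73, between Tlr5 and Tlr9 it was 0.73, and between Tlr9 and Tlr13 it was -0.47. Once the group means were removed, r was -0.33, 0.05 and 0.39 for these pairs, so within groups Tlr9 and Tlr13 had r of the other sign. Tlr2 had r of 0.38 with Tlr1 and 0.05 with Tlr6, and 0.55 and 0.62 with the group means removed. In the 13 libraries of 34 weeks r was 0.85 for Tlr1 and Tlr13, and 0.83 for Tlr7 and Tlr8, which had 0.30 over the other 21 and 0.58 there with the group means removed. Tlr2 had 0.55 with Tlr1 and 0.48 with Tlr6 at 34 weeks. The libraries share diet, time and cell mixture, so these values are descriptions.

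**Figure D4:**
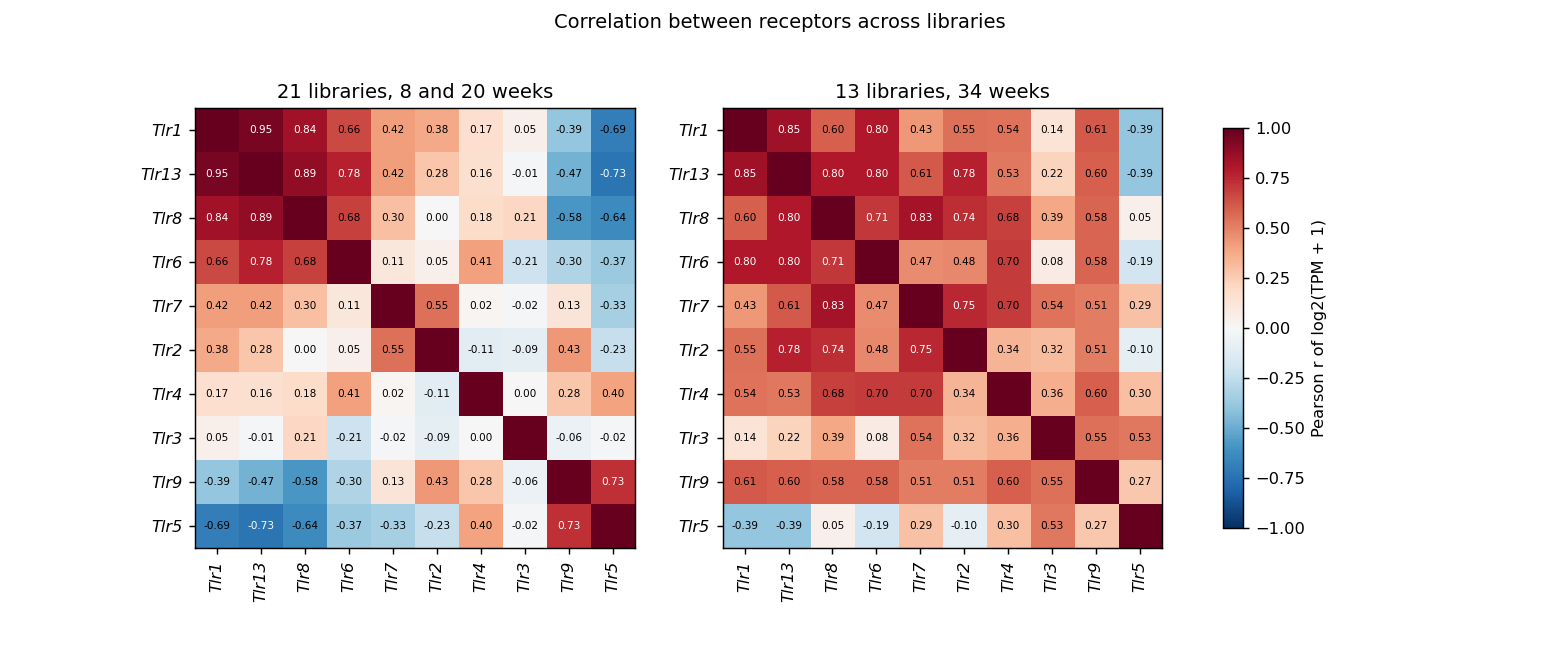
Pearson r of log2(TPM + 1) between receptors over 21 libraries of 8 and 20 weeks (left) and 13 libraries of 34 weeks (right), from -1 (blue) to 1 (red). Tlr1, Tlr13, Tlr8 and Tlr6 form a red block in both, and Tlr5 is blue against Tlr1 and Tlr13.

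The genes with patterns most like each receptor were sought among 10609 genes with a mean of 5 TPM or more, by r over the same 21 libraries. For Tlr13 they were Tyrobp (r = 0.97), Mpeg1 (0.97) and Lcp1 (0.97), with 0.90, 0.76 and 0.93 at 34 weeks. Tyrobp encodes the signalling adaptor DAP12 of myeloid cells, and Mpeg1 a pore-forming protein of macrophages. For Tlr1 they were Lcp1 (0.96), Apbb1ip (0.96) and Pirb (0.95), which encode leukocyte proteins. For Tlr8 they were Blvra (0.94), Evl (0.93) and Arhgap9 (0.93), and for Tlr6 Supt4a (0.88), Nt5dc2 (0.88) and Lyz2 (0.86), of which Lyz2 encodes the lysozyme of myeloid cells. At 34 weeks r with Tlr6 was -0.04 for Supt4a, 0.57 for Nt5dc2 and 0.78 for Lyz2.

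For Tlr2 the nearest genes were Nfkb2 (0.97), a subunit of NF-kB, Ehd1 (0.96) and Plaur (0.96), the urokinase receptor, with 0.72, 0.71 and 0.49 at 34 weeks. For Tlr5 they were Cd209f (0.94) and Cd209g (0.94), C-type lectins of the DC-SIGN family, and Cd24a (0.92). With the group means removed r was 0.55 for Cd209f, 0.51 for Cd209g and 0.61 for Cd24a. At 34 weeks it was 0.80 for both lectins and 0.03 for Cd24a. For Tlr9 they were Tnfrsf18 (0.88), Mir142hg (0.87) and Rybp (0.87). With the group means removed r was 0.54, 0.69 and 0.63 for these genes, and at 34 weeks it was 0.62, 0.29 and 0.73. The nearest genes of Tlr4 were Hps3 (0.91), Gtf2a1 (0.91) and Snx2 (0.89), those of Tlr7 were C3ar1, Mtmr10 and Spire1 (0.79 each), and those of Tlr3 were Il17rc (0.70), Xrn1 (0.68) and Uba7 (0.65). At 34 weeks r was 0.73, 0.36 and 0.69 for the genes of Tlr4, 0.62, 0.51 and 0.72 for those of Tlr7, and -0.07, 0.63 and 0.59 for those of Tlr3. These orders rest on r alone, over libraries that share diet, time and cell mixture.

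The rest of the pathway was described through 10 lists with 99 genes. At 20 weeks 11 of the 95 genes tested were higher with HFD and 6 lower, with a median log2 fold change of 0.00, beside 14.3% of all genes called. At 8 weeks, at 34 weeks and in the interaction none was called. Between 8 and 20 weeks 13 were higher on CHOW, beside 0.613% of all genes called, and 28 were higher and 1 lower on HFD, beside 8.78%. At 20 weeks a list with 1 or 2 called of 6 to 15 genes lies near the share of all genes, so such counts say nothing particular about the list.

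Of the 10 genes of chaperones, trafficking and processing, 5 rose with HFD at 20 weeks and all were endolysosomal proteases, which can cut the ectodomains of endosomal receptors. Ctsk gave 2.44 (SE 0.36, adjusted p = 0.000236), Ctss 1.71 (SE 0.37, adjusted p = 0.00459), Ctsb 1.23 and Ctsl 1.09 on the log2 scale, and the fifth was Lgmn. Unc93b1, the chaperone that brings endosomal receptors to their compartment, gave 0.56 (SE 0.21, adjusted p = 0.0704). Of the 6 co-receptors and accessory proteins, Cd180, a homolog of Tlr4 on B cells and macrophages, rose by 0.78 (SE 0.24, adjusted p = 0.0333). The partners of Tlr4 gave 0.38 for Cd14 (adjusted p = 0.510) and -0.29 for Ly96 (adjusted p = 0.343).

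Of the 5 adaptors tested (6 listed) none was called between diets, and Myd88, shared by all receptors here except Tlr3, gave -0.43 (SE 0.15, adjusted p = 0.0518) and Ticam1, the adaptor of Tlr3 and Tlr4, -0.28 (SE 0.19, adjusted p = 0.337). Of 15 kinases and ubiquitin ligases 2 rose (Tab1 and Ikbkg), a share near that of all genes. Of 11 transcription factors Irf7, which drives type I interferon genes downstream of Tlr7 and Tlr9, fell by 1.21 (SE 0.18, adjusted p = 0.000241). Of 10 negative regulators Irak3, an inhibitor of the kinases next to Myd88, fell by 0.75 (SE 0.21, adjusted p = 0.0245). Of 15 cytokine and chemokine targets Ifnb1 fell by 2.43 (SE 0.64, adjusted p = 0.0158) and Cxcl10 by 1.23 (SE 0.39, adjusted p = 0.0405).

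Of the 10 endogenous ligands tested (11 listed), Saa3 fell by 2.89 (SE 0.71, adjusted p = 0.0106), Dcn fell by 0.61 and Bgn rose by 0.99 (SE 0.24, adjusted p = 0.00928) at 20 weeks. Tnc, a matrix protein that can engage Tlr4, gave 0.84 at 20 weeks (SE 0.36, adjusted p = 0.121) and 1.34 at 8 weeks (SE 0.39, adjusted p = 0.220). Of 13 other innate immune receptors, Clec7a, the beta-glucan receptor, rose by 1.45 (SE 0.37, adjusted p = 0.0130) and Nlrc4 by 0.77 (SE 0.23, adjusted p = 0.0343).

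Between 8 and 20 weeks the targets of the pathway moved on both diets. Here too, weeks on the diet, age and the session of tissue work cannot be told apart. Of the 15 cytokine and chemokine genes, 12 rose on HFD (median log2 fold change 1.54) and 8 on CHOW (median 1.61), beside medians of all genes of 0.09 and -0.09. Over all 16808 genes tested, 6.12% were called as higher on HFD, and 77 genes on CHOW. Ifnb1 rose by 3.55 on HFD (SE 0.61, adjusted p = 0.000801) and by 5.24 on CHOW (SE 0.70, adjusted p = 0.00146), and Tnf rose by 2.27 on HFD (SE 0.38, adjusted p = 0.000601). The negative regulator Tnfaip3 rose by 1.78 on HFD (SE 0.26, adjusted p = 0.000163) and by 1.61 on CHOW (SE 0.30, adjusted p = 0.0141). Nfkbia and Tnip1, both inhibitors of NF-kB, rose on both diets too, as did Rela, a subunit of NF-kB. Myd88 rose by 0.67 on HFD (SE 0.14, adjusted p = 0.00395) and gave 0.59 on CHOW (adjusted p = 0.0986). Ctsk, Ctsb and Ctsl rose on HFD, as did Lbp, which carries lipopolysaccharide to Cd14, and Cd180. Ikbke, Nfkb2, Pik3ap1, Irak3, Nlrp3 and, on both diets, Ifih1 rose as well, and the ligand Fn1 fell on HFD. The calls of these listed genes were not repeated under other settings or without single libraries. Over all genes, the calls on CHOW went from 103 to 24 without CHOW 8 weeks replicate 4. Those on HFD went from 1475 to 106 with the adipocyte score as a covariate.

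**Figure D5:**
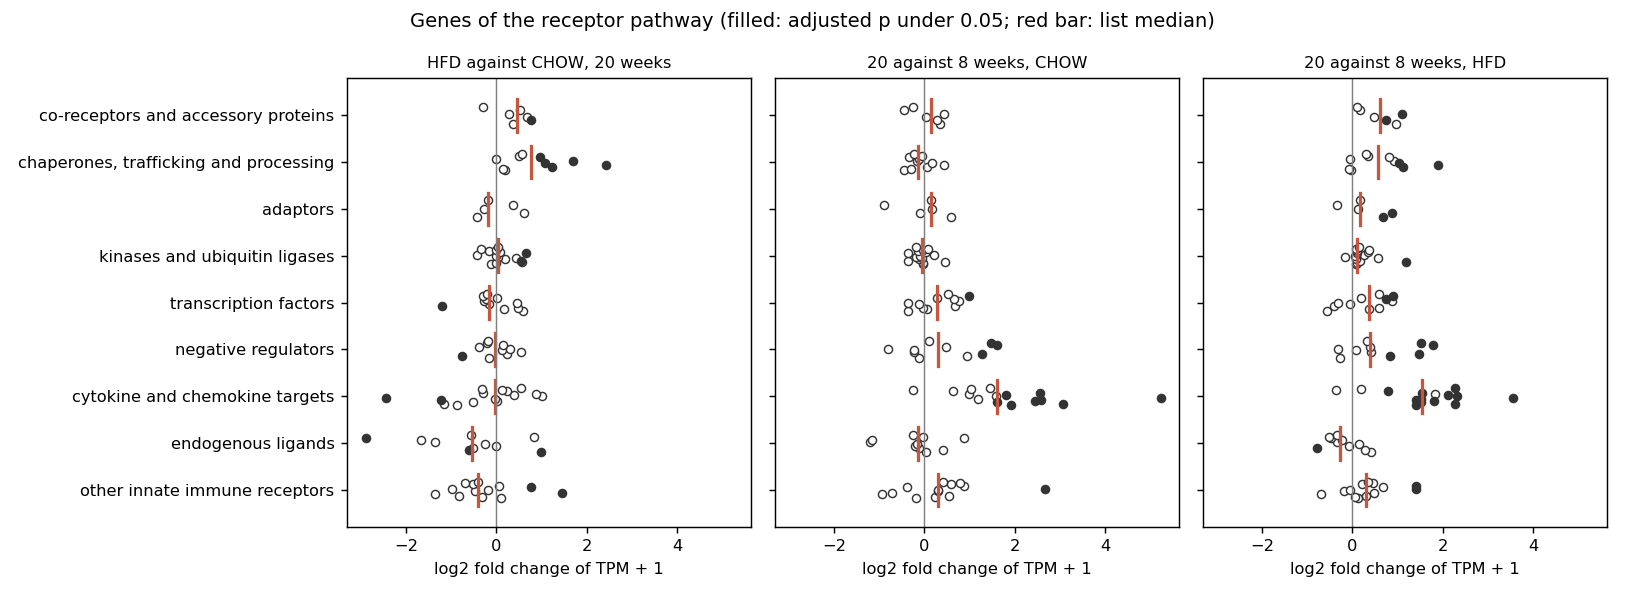
log2 fold change of TPM + 1 of the tested genes in 9 lists of the receptor pathway (points) in 3 comparisons, with filled points at an adjusted p under 0.05 and the list median as a red bar. Between 8 and 20 weeks the medians of the cytokine and chemokine targets are 1.61 on CHOW and 1.54 on HFD, and between diets at 20 weeks the filled points to the right in the list of chaperones, trafficking and processing are Ctsk, Ctss, Ctsb, Ctsl and Lgmn.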

How the data were processed

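RNA of the SVF, the pellet left when collagenase-digested fat is spun and adipocytes float off, was sequenced. The authors trimmed reads with Trimmomatic after FastQC and MultiQC, quantified transcripts with Salmon against gencode M10 (mm10) and summed them to genes (tool versions: not given in the sources used here). Per gene, the authors deposited TPM, with 21 libraries of 8 and 20 weeks in 1 table and 13 of 34 weeks in another. They ran DESeq2 on counts, which TPM does not allow. TPM keeps no depth, so depth per library is unknown and no counting interval is given. TPM is a share, so it moves when other RNA takes more of a library.

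Symbols and positions came from gencode M21 (GRCm38) by ID without version. A gene was tested where 4 libraries or more (8 and 20 weeks), or 6 (34 weeks), reached 1 TPM. Values entered as log2(TPM + 1), a scale that understates changes of low genes, in limma 3.58.1 in R 4.3.3 (1 mean per group, eBayes with trend, two-sided, Benjamini-Hochberg over all genes tested, threshold 0.05). All 21 or 13 libraries of a table entered 1 fit, which was tried on simulated data. Those values were drawn for each gene apart, without shifts shared by a library, so the trial does not cover RNA of other tissues. There were 6 comparisons: the diets at each time, 20 with 8 weeks on either diet, and the interaction of diet and time. Replicates were taken from the sample titles; nothing states that each is a separate mouse, so p-values measure the spread between libraries. Alternatives were other pseudocounts, filters, scalings, sample weights, covariates, a replicate block and libraries left out. Named genes were all receptors, up to 4 called members of each pathway list with the largest change, Tnc, Cd14, Ly96, Myd88, Ticam1 and Unc93b1 whatever their values, the 3 genes most like each receptor, and markers of cell types that moved with a result; further called members are named to complete a count, chosen after their values were seen. A marker score is the mean log2 level of a list. The receptors and the lists (10 of the pathway, 16 of cell types) were chosen with earlier results of these data known.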

Additional observations from a re-analysis of the deposited data

Results flagged for a closer look

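In 60 sets of 1 receptor and 1 group of libraries, the highest or lowest library was compared with its nearest neighbour on the log2 scale, and 4 lay further from the others than Dixon's limit at 95% allows. Chance alone flags about 1 in 20 such sets. Tlr2 was at 53.2 TPM in HFD 8 weeks replicate 3, where the others were at 136 to 218 TPM, and this is the library rich in seminal vesicle RNA. Tlr4 was at 6.42 TPM in CHOW 34 weeks replicate 6, the library richest in adipocyte genes, where the others were at 10.7 to 14.3 TPM. Tlr6 was at 27.8 TPM in CHOW 8 weeks replicate 3, where the others were at 5.88 to 6.92 TPM, and at 7.30 TPM in CHOW 20 weeks replicate 2, where the others were at 1.03 to 1.74 TPM.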

How the results depend on the processing

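The 6 calls between diets at 20 weeks were made under every alternative except the adipocyte score as a covariate, which left 2, and the removal of single libraries, which left 5 to 6. At 8 weeks the macrophage score gave 1 call (Tlr8), and at 34 weeks no alternative gave any. Between 8 and 20 weeks on HFD, where 4 were called, there were 2 with no filter, 0 with the adipocyte score, 3 with only the groups of the comparison or without the libraries that stood apart, and 1 to 5 without single libraries. There were 5 with the filter at 5 TPM, median-ratio scaling, quantile normalization, rescaled TPM or the leukocyte score, and 6 with array weights. On CHOW, where none was called, there was 1 with median-ratio scaling, with TPM rescaled without erythroid, germ cell and seminal vesicle genes, with the leukocyte, macrophage or adipocyte score, and without the libraries that stood apart. There were 3 with array weights and 0 to 2 without single libraries. In the interaction there was 1 with quantile normalization, 4 with array weights, 1 with the adipocyte score and 0 to 3 without single libraries. The log2 fold change of Tlr2 between 8 and 20 weeks on HFD turned from 0.90 to -0.03 with the adipocyte score. The cause of these changes was not tested. Of 1938 values of single receptors under alternatives, 39 passed the threshold anew and 28 no longer passed it with the same sign. A further 1, the value of Tlr2 on HFD with the adipocyte score, no longer passed it and changed sign. The others stayed on their side of it, and 75 of those changed sign with no call on either side.

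With a replicate block, 6 receptors were called between diets at 20 weeks and 5 between 8 and 20 weeks on HFD (Tlr7 added). Of the pairs of same-numbered libraries, 13 of 28 at 8 and 20 weeks, and 3 of 6 at 34 weeks, deviated together with r over 0.1. Libraries with different numbers were not compared, so these counts cannot tell whether the numbers pair the mice.

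Over all genes at 20 weeks, 2405 were called, against 78 with the adipocyte score and 5092 with array weights, and the count was 1365, 1253 and 1268 without CHOW 20 weeks replicate 3, 4 and 5. The 14.3% set beside the receptors would be lower with the adipocyte score or without each of those libraries in turn, and higher with array weights. It would also be higher with median-ratio scaling (3608 called), quantile normalization (3502) or the replicate block (3597). Of the calls 65.1% were higher, against 47.1% with quantile normalization. The median over all genes was then -0.05 on the log2 scale, where it had been 0.08. Between 8 and 20 weeks on HFD 1475 genes were called, with 106 (adipocyte score) to 2755 (quantile normalization) under other settings and 932 to 1842 without single libraries (lowest without HFD 8 weeks replicate 6). On CHOW 103 were called, with 49 (no filter) to 1659 (array weights) under other settings and 24 to 380 without single libraries. TPM values hold no depth, so precision rests on the number of libraries alone.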
